A study of Ovis aries with 15 samples.

Results

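Ribosome biogenesis factors are the proteins that transcribe, trim, modify and fold the ribosomal RNA and assemble it with the ribosomal proteins. A list of 50 such genes, covering RNA polymerase I, the nucleolar processing machinery and the factors of both subunits, was looked up by gene symbol in a table of 24691 features of the sheep mammary gland, and 49 of the 50 symbols were found. Expression was measured in needle biopsies of the mammary parenchyma of 2-year-old Romney ewes, all in their first pregnancy or lactation. There were 9 libraries from late pregnancy (day 135 of gestation, SD 2.4 days) and 6 from lactation (day 15 post partum, SD 1.27 days). Each library was a pool of RNA from several ewes; by the submitters' design text a pool stands for 3 ewes in late pregnancy but 2 ewes in lactation, whereas the study's methods give 3 for both. The ewes were daughters of dams offered ad libitum, maintenance or sub-maintenance pasture from day 21 to 50 of gestation. All of these dams then received a maintenance allowance to day 140, and the daughters themselves were fed alike. Each dam feed group contributed 3 late pregnancy pools and 2 lactation pools. Per the study, ewes were biopsied in late pregnancy and again in lactation, but fewer of them in lactation. Nothing in the labels ties a late pregnancy pool to a lactation pool.

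In the nucleolus, RNA polymerase I transcribes a long ribosomal RNA precursor. Small nucleolar ribonucleoproteins (snoRNPs) methylate or pseudouridylate it, processing complexes cut it, and the small and large subunits then mature on separate paths into the cytoplasm. In many tissues this machinery is most active in growing and dividing cells, and MYC is a well-known activator of its genes, as it is of ribosomal protein genes. The mammary gland passes from growth of the secretory epithelium in pregnancy to milk secretion, so the comparison of states asks whether the biogenesis factors changed together with the ribosomal protein genes.

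The reads counted on genes numbered 7597938 to 19823166 per library before lambing and 10352962 to 25679416 after it. Between 13.7 and 23.4% of these were from milk protein genes in late pregnancy, and between 71.3 and 75.8% in lactation, so each count was scaled by TMM, which sets the library total so that most genes keep their ratio, and is given per 1e6 of that total (CPM). The lactation library of ad libitum dams, pool 1, stood apart in having 13.2% of its gene reads outside exons, against 5.85 to 6.68% in the other lactation libraries and 14.4 to 16.1% in late pregnancy. The epithelial markers that define the gland were detected in all libraries, and the summed CPM of 6 luminal markers was 1417 to 1736 in late pregnancy, below the 2290 to 2551 of lactation. The summed CPM of 6 immune markers was 83.2 to 111 in late pregnancy and 46.6 to 59.8 in lactation, that of 4 fibroblast markers 353 to 627 and 225 to 372, and that of 10 proliferation markers 141 to 250 and 33.2 to 58.7. In biopsies, fewer cells of a type and less RNA per cell cannot be told apart, and the part of these shifts in cell markers in the results below was not tested.

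The biogenesis factors were split between falls and rises in lactation, whereas the ribosomal protein genes fell. Of the 49 members, all of which passed the filter on low counts, 14 were lower in lactation and 16 were higher at an adjusted p under 0.05 in edgeR's quasi-likelihood test, and 19 were not called. Among all 13345 tested genes 68.4% were called, 35.2% lower and 33.1% higher, against 28.6% lower and 32.7% higher among the members, so the share of called members was no larger than the background. The median log2 change (lactation over late pregnancy) was 0.03 over the members and -0.03 over all tested genes. Over 61 cytosolic ribosomal protein genes it was -0.94, a 1.91-fold fall, with 60 of the 61 called lower and none higher. The 95% interval of the log2 change lay above that ribosomal protein median in 48 of the 49 members, and NPM1 was the exception.

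The split of the members depended on the scaling and the filter. With upper quartile scaling 22 members were lower and 6 higher, with library totals that leave out the milk protein genes 24 and 5, without a filter on low counts 18 and 9, and in limma on the authors' quantile-normalized values 22 and 9. The median of all tested genes also moved, to -0.18, -0.24, -0.12 and -0.05 in turn. With the whole library as the total, milk proteins included, the median of all genes was -1.94 and all 49 members were lower. The ribosomal protein genes were lower, in 59 to 61 of 61 genes, under every setting tried. Across the 10 settings other than the whole-library total, 12 members were called lower each time, 5 higher each time (NHP2, RRP12, BYSL, PNO1 and RRS1), 9 were never called, and none was called in both directions.

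**Figure D1:**
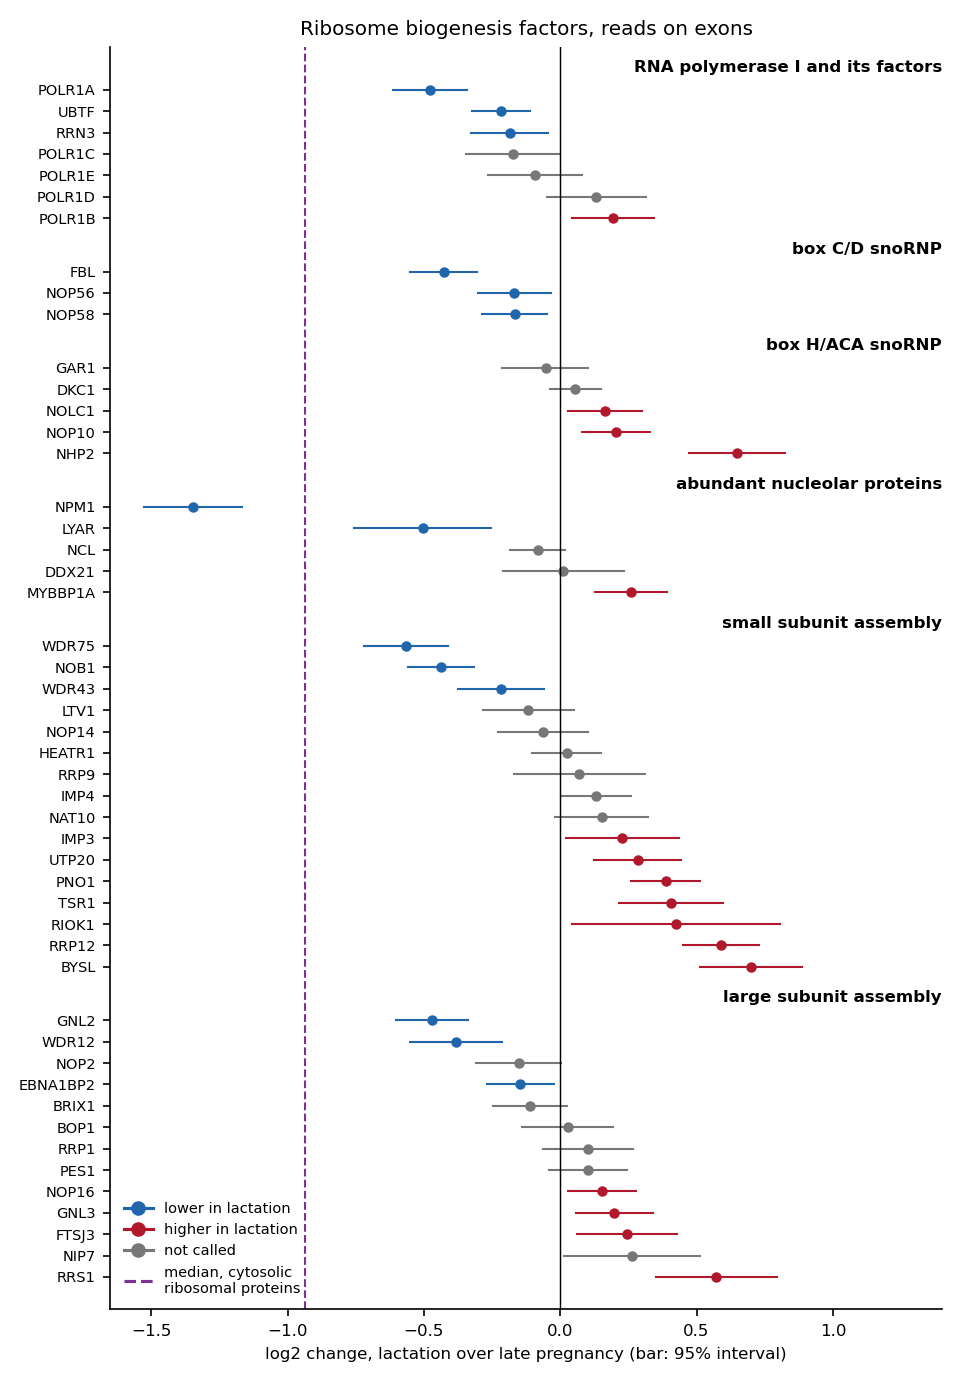
Log2 change of reads on exons, lactation over late pregnancy, for the 49 members, grouped by role and ordered within each role. Points are fitted values with 95% intervals, blue for called lower, red for called higher and grey for not called (edgeR, TMM scaling), and the dashed line is the median of 61 cytosolic ribosomal protein genes at -0.94. All members except NPM1 lay to the right of that line.

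The members moved little. A log2 change beyond 0.5 in either direction was found for 7 members (14.3%), against 47.1% of all tested genes. The median size of the log2 change was 0.19 over the members and 0.46 over all genes. Among the 9265 tested genes within the members' range of mean RPKM in late pregnancy, these values were 40.4% and 0.39. NPM1 was the only member to change more than 2-fold (13.0% of all genes were called lower and 9.13% higher by that much). For 18 of the 19 members that were not called, the 95% interval of the log2 change lay within 0.5 of 0, and the intervals of all 19 spanned -0.34 to 0.51. In CPM, all 6 lactation libraries were below all 9 late pregnancy libraries for 7 members (POLR1A, NPM1, FBL, GNL2, WDR12, WDR75 and NOB1) and above them for 5 (NHP2, RRS1, PNO1, RRP12 and BYSL). The same held for 20.0% and 20.2% of all tested genes. The summed CPM of the 49 members was 2009 to 2221 in late pregnancy and 1852 to 2019 in lactation.

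**Figure D2:**
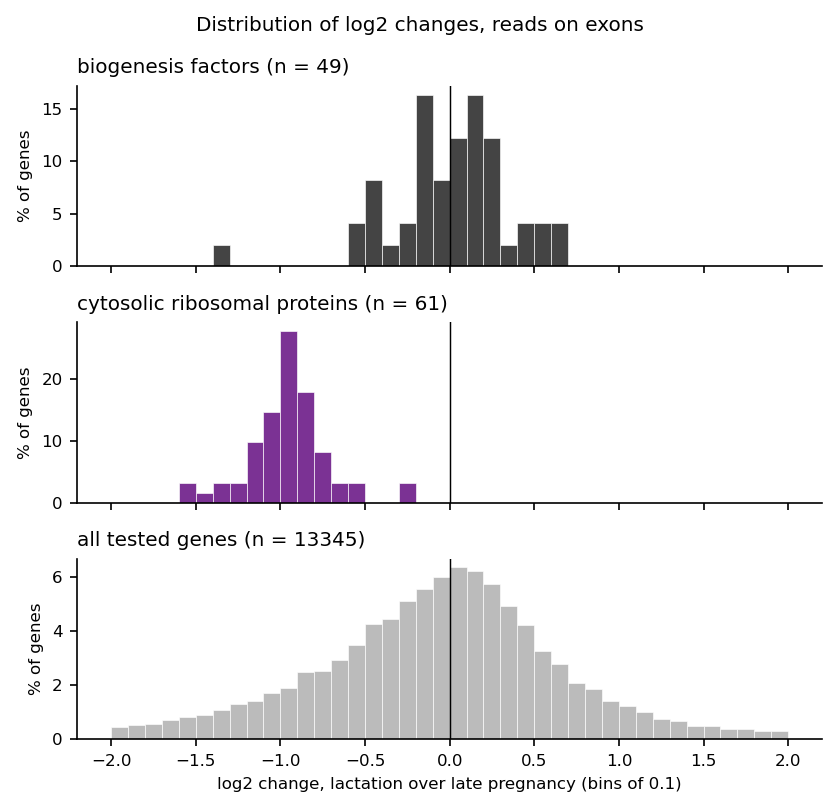
Share of genes (y axis, percent) in bins of 0.1 of the log2 change from late pregnancy to lactation (x axis) for the 49 biogenesis factors, the 61 cytosolic ribosomal protein genes and all 13345 tested genes, of which 12422 lay within the axis. The members gathered around 0, the ribosomal protein genes around -0.94, and all genes spread more widely than the members.

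RNA polymerase I and its factors had 3 of 7 members lower and 1 higher, with a median log2 change of -0.17. With upper quartile scaling, and with library totals without milk proteins, 5 were lower and 0 higher. POLR1A, the largest catalytic subunit of the polymerase (chromosome 3, 57779978 to 57865407), was at 35.7, 41.8 and 43.5 CPM in late pregnancy (lowest, median and highest library) and 24.8, 30.2 and 33.9 CPM in lactation. All lactation libraries were below all late pregnancy libraries, and the log2 change was -0.48 ± 0.06 (SE), a 1.39-fold fall (adjusted p = 1.7e-06). The other catalytic subunit, POLR1B, was higher at a log2 change of 0.19 (adjusted p = 0.023) and was called in only 5 of the 10 settings. UBTF, which opens the ribosomal RNA genes for the polymerase, fell by 0.22 on the log2 scale, and RRN3, which brings the polymerase to the promoter, fell by 0.18, both in all 10 settings and both with overlapping libraries.

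Subunits that RNA polymerase I shares with RNA polymerase III were not called. POLR1D, the most highly expressed gene of this group per kilobase, was at 23.0 to 33.0 CPM (median 27.4) in late pregnancy and 25.7 to 35.4 (median 30.8) in lactation, a log2 change of 0.13 ± 0.09 (adjusted p = 0.18). POLR1C was at 14.2 to 17.9 and 12.4 to 16.2 CPM (-0.17, adjusted p = 0.071). Nor was POLR1E, which is particular to RNA polymerase I, at 12.1 to 17.4 and 13.0 to 15.9 CPM (-0.09, adjusted p = 0.33). The libraries of both states overlapped for these 3 subunits. POLR1C was called lower in 4 of the 10 settings and POLR1E in 2, whereas POLR1D was never called. With TMM, therefore, among the listed subunits POLR1A fell, POLR1B did not, and POLR1C, POLR1D and POLR1E were not told apart from no change.

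All 3 measured proteins of the box C/D snoRNP, which guides methylation of the ribosomal RNA, were lower in lactation. FBL (fibrillarin), the methyltransferase itself, was at 49.1 to 58.1 CPM in late pregnancy (median 54.8) against 36.3 to 45.5 in lactation (median 41.0), with no overlap and a log2 change of -0.43 ± 0.06 (adjusted p = 2.4e-06). NOP56 and NOP58 are the paired scaffold proteins of the particle. NOP56, the most highly expressed of the 3, was at 113 to 141 CPM (median 120) and 104 to 122 (median 109), a log2 change of -0.17 ± 0.06 (adjusted p = 0.025). NOP58 was at 43.4 to 55.9 (median 48.2) and 40.8 to 44.4 CPM (median 43.4), also a log2 change of -0.17 (adjusted p = 0.015). Both scaffold genes overlapped between the states, and the call of NOP56 was lost without the lactation library of sub-maintenance dams, pool 1 (adjusted p = 0.06), or of maintenance dams, pool 2 (adjusted p = 0.056).

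The box H/ACA snoRNP, which guides pseudouridylation, had 3 of 5 members higher and none lower. NHP2, a small RNA-binding core protein (chromosome 5, 36727616 to 36731383), was at 14.9, 19.9 and 20.9 CPM in late pregnancy and 26.6, 29.4 and 31.9 CPM in lactation. Every lactation library was above every late pregnancy library, and the log2 change was 0.65 ± 0.08, a 1.57-fold rise (adjusted p = 1.1e-06). NOP10, another core protein, rose by 0.20 on the log2 scale (adjusted p = 0.0048, called in 7 of the 10 settings), and NOLC1, a chaperone of the particles, rose by 0.16 (adjusted p = 0.03, called in 5). The pseudouridine synthase itself, DKC1 (dyskerin), was at 59.6 to 66.5 CPM (median 63.9) in late pregnancy and 59.6 to 68.9 (median 66.4) in lactation, a log2 change of 0.06 ± 0.05 with a 95% interval of -0.04 to 0.15 (adjusted p = 0.28). The fourth core protein, GAR1, was at 12.5 to 15.7 and 11.8 to 15.0 CPM (-0.05, adjusted p = 0.53). GAR1 was called lower in 3 of the 10 settings and DKC1 in 2. The median of the 5 genes was 0.16 with TMM, 0.01 with upper quartile scaling and -0.05 with library totals without milk proteins, so that their direction as a group rests on the scaling, while NHP2 was higher under all 10 settings.

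The abundant nucleolar proteins differed most from each other. NPM1 (nucleophosmin), a histone and ribosome chaperone of the granular zone of the nucleolus (chromosome 16, 3243574 to 3256853), was at 196, 239 and 275 CPM in late pregnancy and 81.7, 88.0 and 109 CPM in lactation. The states did not overlap, and the log2 change was -1.35 ± 0.09, a 2.54-fold fall (adjusted p = 3.3e-11) and the largest change of any member. Only 11.4% of the NPM1 reads were placed uniquely, so most of them could also have been placed on a near-identical copy elsewhere in the genome, and the level is uncertain. With uniquely placed reads alone the log2 change was -1.20 (adjusted p = 0.00024).

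NCL (nucleolin), which binds the ribosomal RNA precursor as it is made, was second to NPM1 in mean RPKM in late pregnancy (227 against 243) and first in lactation (62.1 against 27.7). It was at 404, 417 and 454 CPM in late pregnancy and 387, 397 and 437 CPM in lactation. Its libraries overlapped and the log2 change was -0.08 ± 0.05 with a 95% interval of -0.18 to 0.02 (adjusted p = 0.13). NCL was called lower in 4 of the 10 settings, and 75.3% of its reads were unique. LYAR, a zinc finger protein of growing cells, was at 6.67, 8.61 and 10.6 CPM and then 4.38, 6.63 and 7.03, a log2 change of -0.51 ± 0.12 (adjusted p = 0.00098) with overlapping libraries. DDX21, an RNA helicase, was at 25.4 to 36.8 and 24.6 to 39.0 CPM (0.01, adjusted p = 0.93), and MYBBP1A, a nucleolar partner of the transcription factor MYB, rose by 0.26 on the log2 scale (adjusted p = 0.0011, called in 8 settings). Of the 2 most abundant members, therefore, NPM1 fell in every lactation library and NCL did not.

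**Figure D3:**
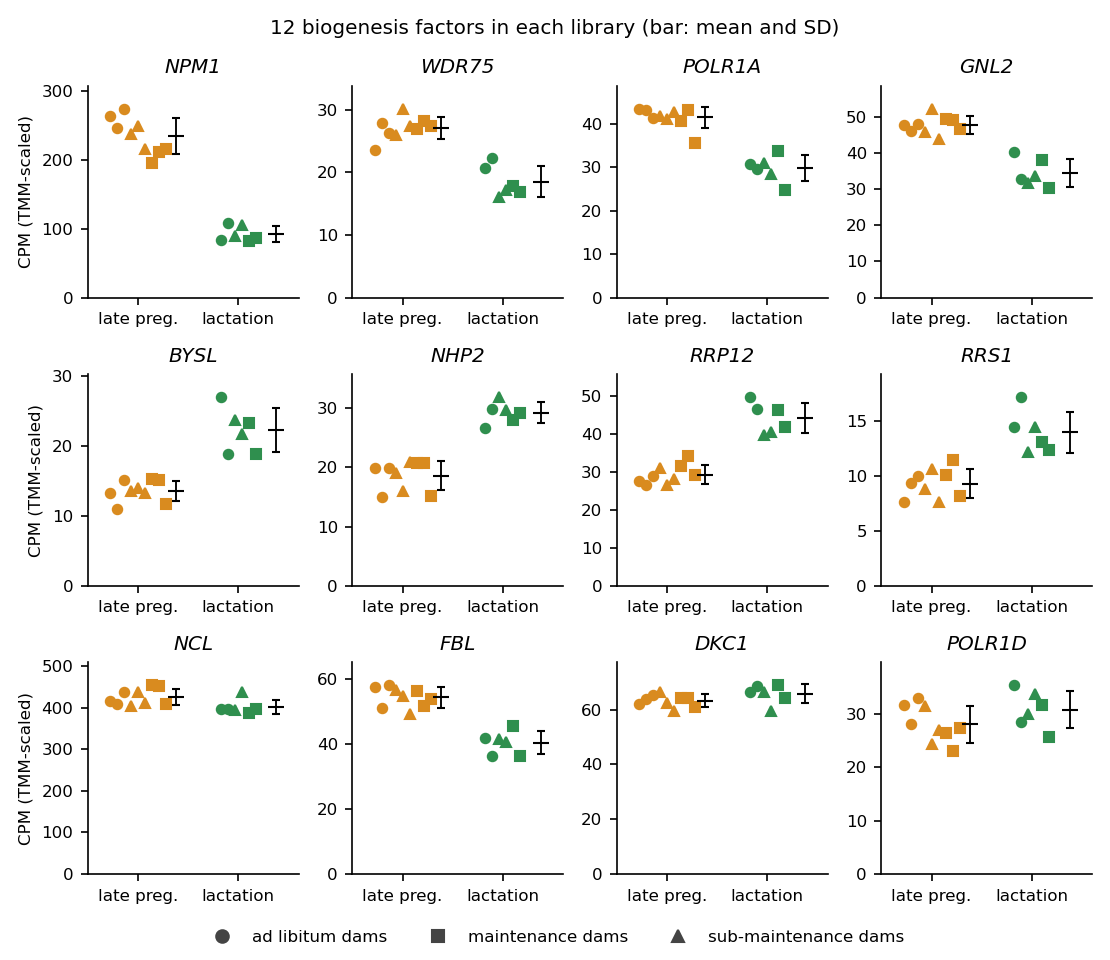
CPM after TMM scaling (y axis, from 0) of 12 members in each of the 9 late pregnancy (orange) and 6 lactation (green) libraries, with the dam feed group as the marker shape and the mean and SD as bars. The states were separate for the top row (NPM1, WDR75, POLR1A and GNL2), which fell, the middle row (BYSL, NHP2, RRP12 and RRS1), which rose, and FBL, and overlapped for NCL, DKC1 and POLR1D.

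The factors of the small subunit held the largest rise of any member, that of BYSL, and had 7 of 16 measured members higher and 3 lower. That balance turned to 4 higher and 5 lower with upper quartile scaling and to 3 and 6 with library totals without milk proteins. BYSL (bystin), needed for the late maturation of the small subunit (chromosome 20, 15782390 to 15787420), was at 11.1, 13.5 and 15.3 CPM in late pregnancy and 18.8, 22.5 and 27.0 CPM in lactation. Its states did not overlap, and the log2 change was 0.70 ± 0.09, a 1.62-fold rise (adjusted p = 7.7e-07). RRP12, which takes part in the export of both subunits in yeast (chromosome 22, 17822940 to 17852166), was at 26.5, 28.9 and 34.3 CPM and then at 39.9, 44.1 and 49.9. It too was higher in all lactation libraries, by a log2 change of 0.59 ± 0.07 (adjusted p = 1.7e-07). PNO1, the partner of the nuclease NOB1, was at 23.8 to 28.0 CPM (median 27.0) and 30.9 to 40.0 (median 34.4), again without overlap, a log2 change of 0.39 (adjusted p = 1.4e-05).

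The other late small subunit factors that rose were TSR1, at 23.8 to 31.3 and 25.1 to 42.0 CPM (0.41, adjusted p = 0.00059), and the kinase RIOK1, at 2.72 to 6.95 and 4.57 to 7.03 CPM (0.42, adjusted p = 0.046). Of the proteins of the early processing complex, UTP20 rose by 0.28 and IMP3 by 0.23 on the log2 scale (adjusted p = 0.0027 and 0.048). TSR1 was called in 9 of the 10 settings, UTP20 in 8, IMP3 in 6 and RIOK1 in 4. The libraries of these 4 genes overlapped between the states.

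WDR75 is a WD-repeat protein of the t-UTP complex, which links transcription to the first processing steps (chromosome 2, 118797467 to 118833027). It was at 23.6, 27.5 and 30.2 CPM in late pregnancy and 16.0, 17.5 and 22.3 CPM in lactation. All lactation libraries were lower, and the log2 change was -0.57 ± 0.07, a 1.48-fold fall (adjusted p = 1.3e-06). WDR43, of the same complex, fell by 0.22 (adjusted p = 0.016), whereas its largest protein, HEATR1, was at 31.9 to 37.3 and 30.8 to 39.4 CPM (0.02, adjusted p = 0.74). NOB1, the nuclease that makes the final cut of the small subunit RNA, was at 33.1 to 39.0 CPM (median 35.2) and then at 21.5 to 27.6 (median 26.6), a log2 change of -0.44 (adjusted p = 1.5e-06) with no overlap. NOB1 and its partner PNO1 thus changed in opposite directions, in all 10 settings.

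A further 6 small subunit members, HEATR1 included, were not called. IMP4, the most highly expressed of the group per kilobase, was at 48.0 to 58.8 CPM (median 50.5) in late pregnancy and 52.4 to 62.4 (median 57.5) in lactation (0.13 ± 0.06, adjusted p = 0.066). NAT10, which acetylates the small subunit RNA, was at 18.3 to 23.9 and 19.6 to 27.0 CPM (0.15, adjusted p = 0.11). LTV1, an assembly factor of the small subunit, was at 32.9 to 46.9 and 31.6 to 43.8 CPM (-0.12, adjusted p = 0.2). NOP14 was at 37.5 to 51.9 and 34.7 to 48.7 CPM (-0.06, adjusted p = 0.49), and RRP9 at 6.98 to 9.98 and 7.32 to 11.0 CPM (0.07, adjusted p = 0.61). The libraries of all 6 overlapped. NOP14 and LTV1 were each called lower in 3 of the 10 settings and HEATR1 in 1.

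The factors of the large subunit had 4 of 13 members higher and 3 lower, a balance that turned to 1 higher and 5 lower with upper quartile scaling, with library totals without milk proteins, in limma and without a filter on low counts. RRS1, which brings the 5S RNA particle into the large subunit (chromosome 9, 43508982 to 43510624), was at 7.61, 9.41 and 11.4 CPM in late pregnancy and 12.2, 13.8 and 17.2 CPM in lactation. The states did not overlap, and the log2 change was 0.57 ± 0.11, a 1.49-fold rise (adjusted p = 8.4e-05). FTSJ3, a methyltransferase of pre-ribosomes, rose by 0.25 and NOP16 by 0.15 on the log2 scale (adjusted p = 0.018 and 0.027), and they were called in 5 and 4 of the 10 settings. GNL3 (nucleostemin), a nucleolar GTPase of proliferating and stem cells and the most highly expressed of the group per kilobase, was at 40.4 to 51.0 CPM (median 42.0) and 47.3 to 59.6 (median 49.1), a log2 change of 0.20 ± 0.07 (adjusted p = 0.014). Its states overlapped, it was called in 5 of the 10 settings, and the call was lost without the lactation library of sub-maintenance dams, pool 2 (adjusted p = 0.053).

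GNL2, a GTPase related to GNL3, moved the other way. It was at 43.7 to 52.2 CPM (median 47.6) in late pregnancy and 30.3 to 40.2 (median 33.3) in lactation, with no overlap and a log2 change of -0.47 ± 0.06 (adjusted p = 1.5e-06). The PeBoW complex, made of PES1, BOP1 and WDR12, is needed to process the large subunit RNA, and its members differed. WDR12 was at 21.3 to 29.2 CPM (median 24.6) and then at 16.6 to 20.7 (median 19.4), without overlap (-0.38, adjusted p = 0.00034). PES1 was at 19.8 to 25.4 and 22.2 to 27.7 CPM (0.10, adjusted p = 0.2), and BOP1 at 11.9 to 14.9 and 11.9 to 16.0 CPM (0.03, adjusted p = 0.78). Only WDR12 of the 3 was called, and the difference between the 3 genes was not tested.

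EBNA1BP2 fell by 0.15 on the log2 scale (adjusted p = 0.034). The remaining members of the group were not called and their libraries overlapped. NOP2, a methyltransferase of the large subunit RNA, was at 28.6 to 36.4 and 23.8 to 33.8 CPM (-0.15, adjusted p = 0.075), BRIX1 at 23.4 to 28.5 and 21.8 to 26.8 CPM (-0.11, adjusted p = 0.13), and RRP1 at 12.1 to 15.8 and 12.3 to 16.1 CPM (0.10, adjusted p = 0.27). NOP2 and BRIX1 were each called lower in 4 of the 10 settings. NIP7 was at 6.94 to 10.3 and 7.33 to 14.1 CPM, a log2 change of 0.26 (adjusted p = 0.059), and had the highest upper limit among the uncalled members (0.51).

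Ratios between genes of the same library do not depend on the scaling. The reads on ribosomal protein genes were 22.8 to 29.5 times those on the biogenesis factors in late pregnancy (median 26.5) and 12.7 to 15.9 times in lactation (median 15.1). Every lactation library had the lower ratio. Of the reads that were not from milk protein genes, the biogenesis factors took 0.417 to 0.469% in late pregnancy and 0.327 to 0.361% in lactation, and the ribosomal protein genes 10.7 to 12.5% and 4.59 to 5.66%. These shares, unlike the ratios, rest on the choice of that total. With it the median log2 change was -0.24 over all tested genes, -0.18 over the members and -1.145 over the ribosomal protein genes. The RPKM of NPM1 over that of NCL was 0.837 to 1.24 (median 1.11) in late pregnancy and 0.408 to 0.533 (median 0.432) in lactation, with NPM1 above NCL in 7 of 9 late pregnancy libraries and below it in all 6 lactation libraries. With uniquely placed reads alone that ratio was 0.0491 to 0.125 and 0.0265 to 0.0721, and the states overlapped. NPM1 had the largest fall of any member in these libraries and NCL was not called, so the separation in RPKM is not an independent result. The RPKM of BYSL over that of WDR75 was 0.899 to 1.30 in late pregnancy, against 1.91 to 3.36 in lactation. The lowest of the lactation values was that of ad libitum dams, pool 2. BYSL had the largest rise of any member and WDR75 was among the largest falls. The pair was picked from these same libraries, so the separation of the states in this ratio was fixed by that choice.

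**Figure D4:**
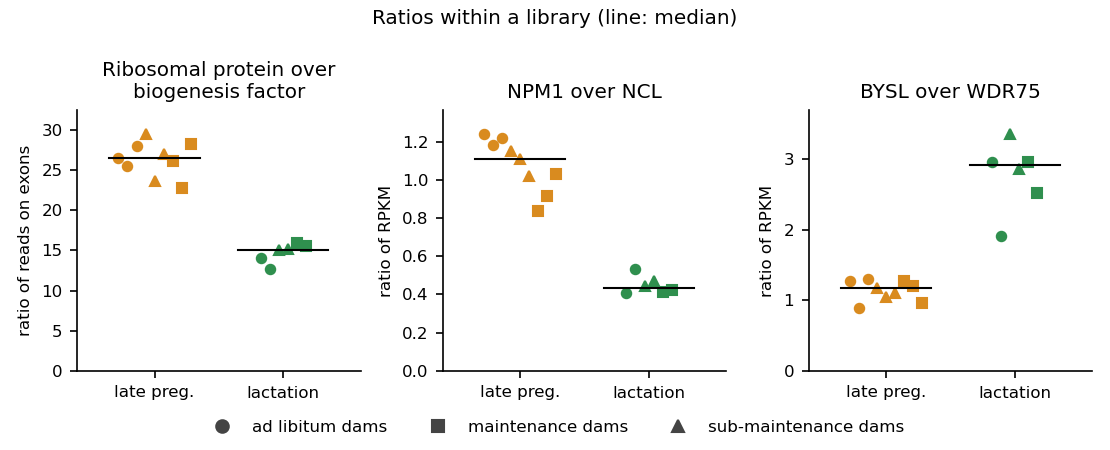
Ratios within each library (y axes, from 0): reads on ribosomal protein genes over reads on biogenesis factors, and RPKM of NPM1 over NCL and of BYSL over WDR75. Points are the 9 late pregnancy (orange) and 6 lactation (green) libraries, with the dam feed group as the marker shape and lines at the medians, and the states are separate in each panel. BYSL and WDR75 were picked from these libraries for their opposite changes. NPM1 had the largest fall of any member in the same libraries, so its panel is not an independent test either.

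Reads inside a gene but outside its exons come from unspliced transcripts or unannotated exons, and 43 members had enough of them to test. Of these 43, 5 were lower in lactation and 11 higher, against a background of 29.0% of genes in each direction (58.0% in all), and the median log2 change was -0.03. Intron reads rose by more than 2-fold, as they did for 9.74% of all genes, for RIOK1 (log2 change 1.21, adjusted p = 0.00014) and BYSL (1.05, adjusted p = 3.2e-07). The change of RIOK1 rested on few reads, with a median of 9 intron reads per lactation library, against 38 for BYSL. NHP2 (0.86), UTP20 (0.82) and RRP12 (0.64) followed, and TSR1 (0.37) was also higher, so that the introns of these 6 genes moved in the direction of their exons. Other members called on their exons had intron changes of the opposite sign that were not called. Examples were FBL (0.435, adjusted p = 0.076), PNO1 (-0.231, adjusted p = 0.069) and NOP16 (-0.425, adjusted p = 0.065). The Spearman correlation of exon and intron changes was 0.618 over the 43 members and 0.765 over all genes tested in both. Intron reads were higher with no call on the exons for POLR1E (0.69), NAT10 (0.53), PES1 (0.43), GAR1 (0.37) and DDX21 (0.36).

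The 5 genes with fewer intron reads were LTV1 (-0.76, adjusted p = 2.2e-07), WDR75 (-0.52), WDR12 (-0.41), NOP58 (-0.38) and NPM1 (-0.26, adjusted p = 0.019). LTV1 had no call on its exons. NPM1 fell far less in its introns than in its exons (-1.35), although that difference was not tested. Among 60 ribosomal protein genes the median log2 change of intron reads was -0.04, with 12 lower and 8 higher, and that of the exons was -0.94. Of those 60, 24 were lower in introns with upper quartile scaling and 34 with library totals without milk proteins. Without the lactation library of ad libitum dams, pool 1, which stood apart in its intron reads, 4 members were lower and 11 higher in introns, and 13 and 13 in exons. Without the lactation library of sub-maintenance dams, pool 1, 3 members were lower in introns. With upper quartile scaling 15 members were lower and 8 higher, and with library totals without milk proteins 22 and 3.

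**Figure D5:**
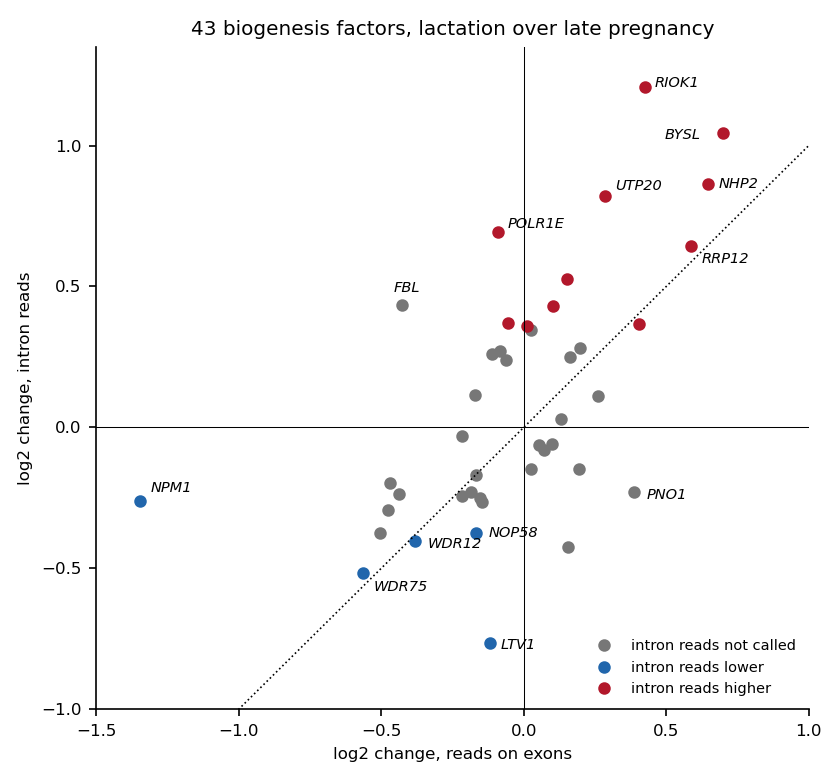
Log2 change of intron reads (y axis) against log2 change of reads on exons (x axis), lactation over late pregnancy, for the 43 members tested in both, with the call on intron reads as colour and a dotted line of equal change. RIOK1, BYSL, NHP2, UTP20 and RRP12 lay at the upper right, WDR75 and WDR12 near the line at the lower left, and NPM1 far to the left of the line.

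No difference by dam feed was detectable among the members. In the 9 late pregnancy libraries none of the 49 members was called in edgeR's test of the 3 dam feed groups (smallest adjusted p = 0.99), nor was any of 13747 genes (0.00%); at an unadjusted p under 0.05 there were 1 member and 571 genes (4.15%). DESeq2 called 20 genes and limma none, in both cases with none of the members. The 1 member was NPM1, at 262 ± 13.9 CPM in pools of ad libitum dams, 208 ± 10.9 in those of maintenance dams and 235 ± 16.8 in those of sub-maintenance dams (SD, n = 3 each; unadjusted p = 0.0053 in edgeR). The edgeR test of whether the state difference depended on dam feed also called none of the 49 members, with a smallest adjusted p of 0.75, and none of 14073 genes (0.00%). WDR75 was the only member with an unadjusted p under 0.05 there (0.017), beside 913 genes in all (6.49%). DESeq2 called 14 genes and limma none in that test, and no member among them.

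Other genes of the same pathway were also split when pooled, although the balance rested on the scaling and differed by role. Of 134 further biogenesis genes listed, 121 were tested, with 40 lower, 29 higher and a median log2 change of -0.03. With upper quartile scaling 66 were lower and 14 higher, with library totals without milk proteins 73 and 9, and in limma 58 and 18. By role, the 8 tested genes of RNA polymerase I were not split, with 6 lower, 0 higher and a median of -0.40. The 23 of snoRNP assembly and the RNA exosome had 11 lower and 4 higher (median -0.125). The 41 of the small subunit had 10 lower and 8 higher (median -0.01), and the 49 of the large subunit 13 and 17 (median 0.045). These counts by role are with TMM only. The largest falls were those of GLTSCR2, a nucleolar factor of the large subunit (-1.46), UTP14A of the small subunit processing complex (-1.09) and CD3EAP, a subunit of RNA polymerase I (-0.98). The largest rises were those of MDN1, the AAA ATPase of the large subunit (0.83), MRTO4 (0.74) and RRP8 (0.66). Of 75 mitochondrial ribosomal protein genes 15 (20.0%) fell and 24 (32.0%) rose, and their median log2 change was 0.03. This balance also turned, to 30 lower and 12 higher both with upper quartile scaling and in limma, and to 36 and 10 with library totals without milk proteins.

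MYC, the transcription factor, was at 46.2 to 56.7 CPM in late pregnancy, against 11.9 to 18.2 in lactation. The states did not overlap and the log2 change was -1.80 (adjusted p = 2.2e-13). Of 7 tested genes of MYC and its partners 4 were lower and 2 higher, with a rise of MXD1 (0.96) and a fall of MXD3 (-3.09), both of which pair with MAX in place of MYC. All 10 proliferation markers were lower, with a median log2 change of -3.08. The median of the biogenesis factors in the same libraries was 0.03, and whether these changes bear on each other was not tested.

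Levels per kilobase of exon were ordered alike in both states. The mean RPKM of the members ranged from 3.14 to 243 in late pregnancy (median 16.5), and in lactation from 1.20 to 62.1 (median 4.95), where the milk protein reads enlarge the total that RPKM divides by. Over the 49 members, which share the same libraries, the Spearman correlation between the mean RPKM in late pregnancy and in lactation was 0.959. By mean RPKM over the 15 libraries NCL (161) and NPM1 (157) came first, followed by NOP56 (65.0), POLR1D (51.6), FBL (47.4) and IMP4 (41.4). The coefficient of variation of CPM between libraries had a median over the members of 8.63% in late pregnancy and 10.3% in lactation. At least 95% of the reads were placed uniquely for 43 of the 49 members. The others were NPM1, NCL, IMP3, RRN3, FTSJ3 and DDX21.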

How the data were processed

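RNA from mammary biopsies was pooled, and libraries made with the TruSeq RNA kit, which does not mark strand, were sequenced on the Illumina Hi-Seq. Per the study, the authors mapped paired reads to the sheep genome in CLC Genomics Workbench; the submitters' processing notes name the build Oar_v3.1, the study another version, and gene positions are given here as deposited. The authors deposited 1 table with raw read counts of each gene, for its exons and for its full span, each with and without reads that map to several places. The deposited RPKM are the authors' exon reads per kilobase of exon and per 1e6 reads on genes, and the deposited quantile-normalized RPKM are these values forced to the same distribution in all 15 libraries. The table also holds the fold change, p-value and corrected p-value of the authors' Baggerly test, which were not used.

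Reads on exons were tested with edgeR 4.0.16 in R 4.3.3 (filterByExpr by state, TMM, quasi-likelihood F-test, no covariates), with Benjamini-Hochberg adjustment over all tested genes and a call under 0.05. Intervals are 95% intervals from the fit. Intron reads (whole gene less exons) were tested in the same way. Dam feed was tested over the 9 late pregnancy libraries, and whether it altered the state difference over all 15 libraries. The alternatives were DESeq2 1.42.0, limma 3.58.1 on log2(quantile-normalized RPKM + 1), upper quartile and library size scaling with and without milk proteins, no filter, uniquely placed reads, dam feed or lane as a covariate, a replicate block, and each library left out. The code was tested on simulated data, and tables were made in Python 3.11.15. The pools are the replicates, and part of the spread between them may be technical. Counts carry no molecular identifiers, and the fewest reads of any member in a library were 23.

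The members and the lists were chosen with earlier results of these data known. Full values are given for the 4 largest falls and the 4 largest rises, the highest mean RPKM of each of 6 role lists, every uncalled member, MYC, and the 3 largest falls and rises of the other biogenesis lists. The other members with library values were chosen after their values were seen. MPHOSPH10 was not analysed here.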

Additional observations from a re-analysis of the deposited data

Results flagged for a closer look

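In 76 groups of libraries examined (each named gene and the summed members, in each state), 3 values lay far from the rest of their group, and chance alone gives such a value in about 1 in 20 groups. POLR1A was at 35.7 CPM in the late pregnancy library of maintenance dams, pool 3, and at 40.6 to 43.5 in the other late pregnancy libraries, still above every lactation library. NCL was at 436.7 CPM in the lactation library of sub-maintenance dams, pool 2, and at 387 to 398 in the other 5. PES1 was at 27.7 CPM in the lactation library of sub-maintenance dams, pool 1, and at 22.2 to 24.1 in the other 5. The cause of these 3 values was not tested.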

How the results depend on the processing

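With the whole library as the total, 49 members were lower and 0 higher in lactation (median log2 change -1.88), and intron reads were fewer for 26 and more for 1. That total holds the milk protein reads, and under it the changes of BYSL (-1.20), NHP2 (-1.26), RRP12 (-1.31), RRS1 (-1.33), POLR1D (-1.76), DKC1 (-1.85), GNL3 (-1.71), IMP4 (-1.77), DDX21 (-1.90), HEATR1 (-1.88), RRP9 (-1.83), NAT10 (-1.75), BOP1 (-1.88), PES1 (-1.80), RRP1 (-1.80), NIP7 (-1.64), MDN1 (-1.08), MRTO4 (-1.17) and RRP8 (-1.24) turned negative. With library totals without milk proteins the split was 24 lower and 5 higher, the median -0.18 and the intron split 22 and 3, and 11 of the 19 named genes with a positive change turned negative, at -0.20 to -0.01, among them DKC1 (-0.15, called), HEATR1 (-0.19, called) and GNL3 (-0.012, call lost). Upper quartile scaling gave 22 lower and 6 higher, a median of -0.12, and 15 and 8 in introns, and 9 of those 19 turned negative, none of them called, whereas limma on quantile-normalized RPKM gave 22 and 9 with a median of -0.12, and 8 of the 19 turned negative, among them DKC1 (-0.17, called) and GNL3 (-0.005, call lost). Without a filter on low counts 9 members were higher and 18 lower, and 3 of the 19 turned negative, none of them called.

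Pools of the same number and dam feed did not deviate together from their group means (correlations of -0.04 to 0.06 over 13345 genes). With 2 lactation pools per dam feed group, this check cannot tell whether such pools shared ewes. With a replicate block on those numbers 12 members were lower and 10 higher, and 5 and 8 in introns. Leaving out 1 library at a time gave 11 to 16 members lower, 11 to 17 higher, a median of 0.00 to 0.06, 3 to 7 with fewer and 8 to 12 with more intron reads, and 0 for both dam feed tests, as did every other setting of those tests. DESeq2, uniquely placed reads and dam feed or lane as a covariate kept both counts within 1.5 times. Among 36 named genes, leaving out a library kept the call 422 times and changed it 13 times for members, and kept it all 105 times for the other genes. Depth limits the lowest members, such as RIOK1 and LYAR, most.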
